A study of Mus musculus with 10 samples.

Results

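The 5 genes Il5, Il13, Il4, Il9 and Csf2 encode the effector cytokines of type 2 immunity and were followed in RNA of innate lymphoid cells (ILCs) sorted from mouse skin. They were picked out by symbol, as 5 of the 47643 gene IDs in the deposited tables, with earlier results of these data known. All 5 were among the 16208 genes that passed a filter on low counts. The mice were adult, of the B6 strain, and the labels name no treatment or altered allele. Of the 10 libraries, 3 held subcutaneous ILCs, 2 held dermal ILCs sorted as Sca1+, 2 held dermal ILCs sorted as CCR6+ and 3 held epidermal ILCs. Ly6a encodes Sca1, a surface antigen of stem cells and activated lymphocytes, and CCR6 is a receptor for the chemokine CCL20. The series' design text speaks of triplicates, and 2 libraries of either dermal sort were analysed here. The labels do not say whether libraries of a group came from separate animals, so p-values reflect variation between libraries that may be technical in origin.

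ILCs are tissue lymphocytes without rearranged antigen receptors. Type 2 ILCs (ILC2s) hold their cytokine loci open at rest and release IL-5 and IL-13 quickly when epithelial alarmins such as IL-33, IL-25 and TSLP reach them, with GATA3 as the central transcription factor. IL-5 sustains eosinophils, IL-13 and IL-4 act on epithelium, fibroblasts and macrophages through the IL-4 receptor alpha chain, IL-9 acts on mast cells and on ILC2s themselves, and GM-CSF, the product of Csf2, acts on myeloid cells.

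The totals of the deposited expected counts lay between 11627222 and 18118544 per library. Levels are in CPM, which puts the counts of all libraries on 1 scale by means of TMM factors, where 3 counts of a library were worth between 0.149 and 0.258 CPM, or, where genes are set against each other, as the deposited TPM, which is corrected for length. The 5 genes listed as marking ILCs (Ptprc, Thy1, Il7r, Il2rg and Id2) were detected in every library, with summed levels of 6215 to 6897 CPM in subcutaneous, 7142 to 7894 in dermal Sca1+, 5991 to 6270 in dermal CCR6+ and 4655 to 5182 in epidermal libraries. Not all 5 followed the order of the sum. Thy1 had 61, 96 and 99.7 CPM in subcutaneous and 155.4 and 120.7 in dermal Sca1+ libraries. It had 231.1 and 230.8 CPM in dermal CCR6+ and 167.7, 256.5 and 156.1 in epidermal libraries. Of the 5 genes, 1 was higher and 1 lower in subcutaneous against epidermal ILCs, beside 13.3% and 6.87% of all genes. Markers of other cells were present and differed by group. The 6 macrophage genes summed to 3676 to 6747 CPM in subcutaneous, 316.4 to 580.6 in dermal Sca1+, 160 to 218.7 in dermal CCR6+ and 0.163 to 2.13 in epidermal libraries. The 5 fibroblast genes summed to 2707 to 4031 CPM, 2462 to 3564, 1177 to 2028 and 0.139 to 13.6 in the same order of groups. The 5 keratinocyte genes ran the other way, with 26.5 to 31.8 CPM in subcutaneous, 1543 to 1760 in dermal Sca1+, 1077 to 1658 in dermal CCR6+ and 2134 to 4411 in epidermal libraries. The part of these cells in the results on the cytokine genes was not tested. In bulk RNA, fewer cells of a type and less RNA per cell cannot be told apart.

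Il5 and Csf2 were the abundant cytokine transcripts, highest in subcutaneous and next in dermal Sca1+ ILCs and far lower in dermal CCR6+ and epidermal ILCs, while Il13, Il4 and Il9 stayed low in every layer and were not graded in that way. Per length, Il5 had 2814, 2696 and 1995 TPM in the subcutaneous libraries, 1481 and 1723 in dermal Sca1+, 234.9 and 269.1 in dermal CCR6+, and 165.3, 58.1 and 76.3 in epidermal libraries. Csf2 was in the same range, with 2041, 2015 and 2344 TPM in subcutaneous, 757.8 and 613.3 in dermal Sca1+, 125.5 and 49 in dermal CCR6+, and 148.2, 107.1 and 130.5 in epidermal libraries. No library of any group had more than 70.3 TPM of Il13, 34.9 of Il4 or 48 of Il9. The summed TPM of the 5 genes was 4920, 4769 and 4380 in subcutaneous, 2303 and 2378 in dermal Sca1+, 393 and 377.8 in dermal CCR6+, and 457.7, 234.3 and 298.8 in epidermal libraries. The dermal CCR6+ and epidermal ranges of that sum overlapped, and the other groups stood apart. In edgeR's quasi-likelihood test of any difference among the 4 groups, which called 17.4% of all genes tested, 4 of the 5 cytokine genes were called, with Benjamini-Hochberg adjusted p-values of 2.72e-05 for Il5, 4.71e-05 for Csf2, 0.0185 for Il13 and 0.0384 for Il9, against 0.537 for Il4. The call of Il13 was lost without the second dermal CCR6+ library (adjusted p = 0.0747). The call of Il9 was lost in 7 of the 10 fits that left out a library, those without any 1 of the subcutaneous or dermal Sca1+ libraries or without either the first or the third epidermal library (adjusted p of 0.0633 to 0.0901).

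**Figure D1:**
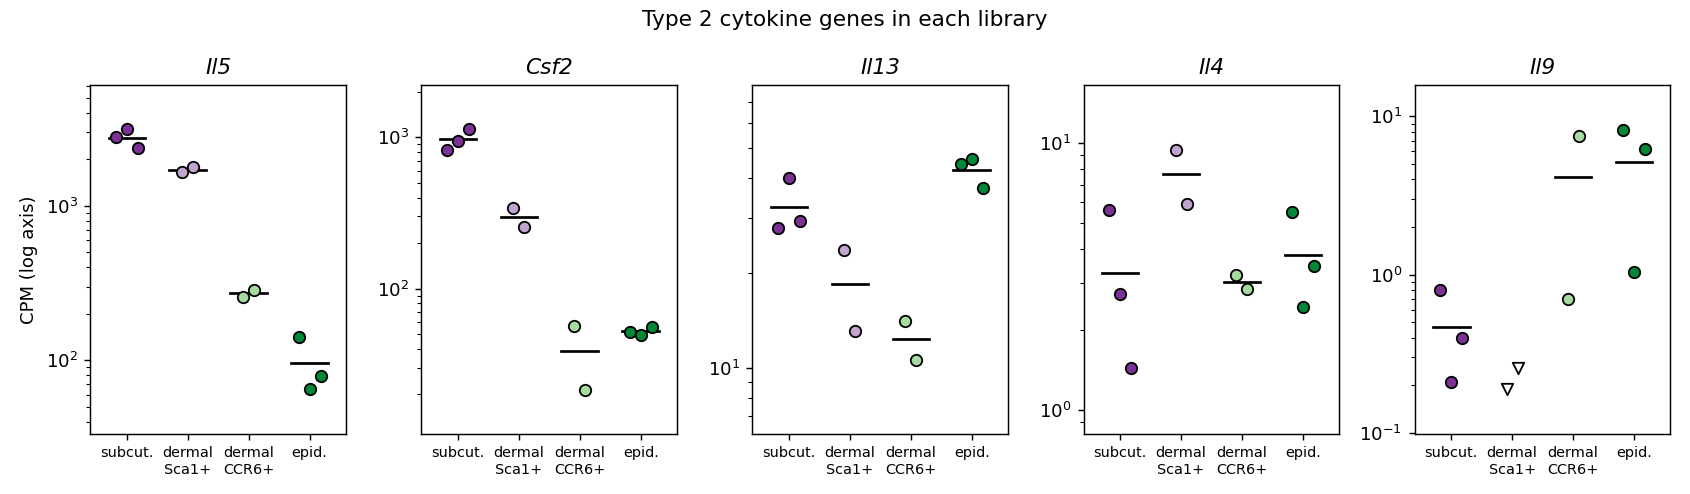
Level of the 5 cytokine genes in each library, in CPM on a log axis, with subcutaneous, dermal Sca1+, dermal CCR6+ and epidermal libraries from left to right. Points are libraries and short lines are group means, and open triangles mark libraries with 0 counts, drawn at the level of 3 counts. Il5 and Csf2 are higher in all subcutaneous and dermal Sca1+ libraries than in all dermal CCR6+ and epidermal libraries, and Il13 has its lowest mean, 12.3 CPM, in the dermal CCR6+ libraries.

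Il5 encodes the main survival and differentiation factor of eosinophils. It had 2815, 3132 and 2375 CPM in subcutaneous ILCs, 1648 and 1784 in dermal Sca1+ ILCs, 258.9 and 287.1 in dermal CCR6+ ILCs, and 142.4, 64.9 and 79 in epidermal ILCs. The 4 groups did not overlap anywhere, and the largest step lay between the dermal populations. Mean levels were 2774 ± 380 CPM (SD, n = 3), 1716 ± 95.9 (n = 2), 273 ± 19.9 (n = 2) and 95.4 ± 41.3 (n = 3) in that order. Against epidermal ILCs, the log2 fold change was 4.86 ± 0.312 (SE, adjusted p = 7.54e-06, edgeR) for subcutaneous, 4.17 ± 0.313 (adjusted p = 3.18e-05) for dermal Sca1+ and 1.52 ± 0.293 (adjusted p = 0.0114) for dermal CCR6+ ILCs. Dermal CCR6+ ILCs were also below subcutaneous ones, with a subcutaneous over CCR6+ log2 fold change of 3.34 ± 0.343 (adjusted p = 0.000404, edgeR), and below dermal Sca1+ ones, with a Sca1+ over CCR6+ log2 fold change of 2.65 ± 0.345 (adjusted p = 0.00772). The neighbouring subcutaneous and dermal Sca1+ levels differed by 0.69 ± 0.302 on the log2 scale without passing the test (adjusted p = 0.31, edgeR). Without the second dermal CCR6+ library, Il5 was no longer called between Sca1+ and CCR6+ (adjusted p = 0.0766) or between CCR6+ and epidermal ILCs (adjusted p = 0.0604), with log2 fold changes of 2.73 and 1.44. A fit of the 2 groups alone also lost the call between CCR6+ and epidermal ILCs (adjusted p = 0.0553).

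Csf2 encodes GM-CSF, which drives the growth and activation of macrophages, dendritic cells and granulocytes. It had 826, 948.3 and 1139 CPM in subcutaneous ILCs, 340 and 256.5 in dermal Sca1+ ILCs, 56.5 and 21.4 in dermal CCR6+ ILCs, and 51.9, 49.2 and 55.4 in epidermal ILCs. Subcutaneous libraries were highest and dermal Sca1+ libraries next, while the dermal CCR6+ libraries lay on either side of the epidermal ones. Means were 971.1 ± 157.8 CPM (SD, n = 3), 298.2 ± 59 (n = 2), 38.9 ± 24.8 (n = 2) and 52.2 ± 3.08 (n = 3). Subcutaneous ILCs were above epidermal ILCs with a log2 fold change of 4.22 ± 0.345 (adjusted p = 2.58e-05, edgeR) and above dermal CCR6+ ILCs with 4.64 ± 0.421 (adjusted p = 0.000242). Dermal Sca1+ ILCs were above epidermal ILCs with 2.51 ± 0.34 (adjusted p = 0.00092, edgeR) and above dermal CCR6+ ILCs with 2.94 ± 0.4 (adjusted p = 0.00948). Csf2 also passed the test between subcutaneous and dermal Sca1+ ILCs, at 1.7 ± 0.359 (adjusted p = 0.0392, edgeR). That call was the least secure, since it was lost in 7 of the 10 fits that left out a library, including each without a subcutaneous or dermal Sca1+ library, with adjusted p-values up to 0.211. The call between Sca1+ and CCR6+ ILCs was lost without the first dermal Sca1+ library (adjusted p = 0.0571) and in a fit of these 2 groups alone (adjusted p = 0.105). Between dermal CCR6+ and epidermal ILCs the log2 fold change was -0.42 ± 0.345 (adjusted p = 0.579, edgeR). It became -1.29 without the first CCR6+ library (adjusted p = 0.0451) and 0.11 without the second (adjusted p = 0.964), so those 2 libraries set its direction.

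Il13 encodes the cytokine that drives mucus, fibrosis and epithelial responses, and in skin it acts on keratinocytes and dendritic cells. It did not follow Il5. Il13 had 27.8, 40.1 and 29.3 CPM in subcutaneous ILCs, 23.7 and 13.1 in dermal Sca1+ ILCs, 14.1 and 10.6 in dermal CCR6+ ILCs, and 44.3, 46 and 37.3 in epidermal ILCs. The dermal libraries were all below the subcutaneous and epidermal ones, whose ranges overlapped. Means were 32.4 ± 6.66 CPM (SD, n = 3), 18.4 ± 7.53 (n = 2), 12.3 ± 2.52 (n = 2) and 42.6 ± 4.63 (n = 3). Il13 was lower in dermal CCR6+ than in epidermal ILCs, with a log2 fold change of -1.79 ± 0.363 (adjusted p = 0.0151, edgeR), and higher in subcutaneous than in dermal CCR6+ ILCs, with 1.39 ± 0.357 (adjusted p = 0.0417). The first call was lost without either CCR6+ library (adjusted p = 0.0581 without the first and 0.123 without the second). The second was lost in 7 of the 10 fits that left out a library, including each without a subcutaneous or dermal CCR6+ library (adjusted p of 0.0519 to 0.286). Dermal Sca1+ against epidermal ILCs gave -1.21 ± 0.353 and missed the threshold (adjusted p = 0.0534, edgeR), whereas DESeq2, limma on log2 TPM and a stricter filter called it. Subcutaneous and epidermal levels differed by -0.39 ± 0.303 on the log2 scale (adjusted p = 0.42, edgeR), which was not detectable beyond the spread of the libraries.

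Il5 and Il13 lie close together on chromosome 11 and had different patterns over the layers, so the sequences before their start sites are shown for comparison. All 5 genes matched a RefSeq promoter entry by symbol. The windows are the 250 bases before the RefSeq start on GRCm38.p6, at chr11:53720544-53720793 on the plus strand for Il5 and at chr11:53634703-53634952 on the minus strand for Il13, written 5′ to 3′. Capitals mark letters of a GATA motif (AGATAA, or the same with T as its first or G as its last base, on either strand) or of a TATA box (TATAAA on either strand).
Il5: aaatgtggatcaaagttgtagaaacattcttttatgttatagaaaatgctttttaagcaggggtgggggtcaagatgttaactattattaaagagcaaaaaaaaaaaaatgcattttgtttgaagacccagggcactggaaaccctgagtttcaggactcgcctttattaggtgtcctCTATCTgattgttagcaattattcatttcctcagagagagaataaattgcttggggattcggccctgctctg
Il13: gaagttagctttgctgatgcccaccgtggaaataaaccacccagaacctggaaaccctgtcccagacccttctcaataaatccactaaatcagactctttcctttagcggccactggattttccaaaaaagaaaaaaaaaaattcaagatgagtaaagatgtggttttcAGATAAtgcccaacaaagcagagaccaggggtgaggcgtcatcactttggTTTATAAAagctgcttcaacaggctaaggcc
Both windows hold 1 GATA match, CTATCT at position -72 of Il5, which is the motif read on the other strand, and AGATAA at position -81 of Il13, counted from the start site. A match to the GATA motif was present in 26.5% of the 32851 RefSeq windows of this length. The Il13 window also holds TATAAA at position -29, overlapping its reverse complement TTTATA at position -31, and 12.4% of all windows hold TATAAA on either strand. The TATAAA letters are not in the Il5 window. Windows of Csf2 and of 1 of the 2 Il4 starts hold a GATA match too, at positions -247 and -80. That Il4 start, at 53617338, lies inside the gene, whose GENCODE start is at 53618669. The window of the other Il4 start, at 53618665, holds no GATA match. The RefSeq start of Csf2 lies 232 bases upstream of its GENCODE start. The Il9 window holds no GATA or TATA match but has the AP-1 motif TGACTCA at position -140, found in 4.46% of windows. These are matches of letters, and no binding was measured.

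Il4 encodes the cytokine that drives IgE class switching and T helper 2 differentiation. It was low in every layer, with 5.62, 2.71 and 1.43 CPM in subcutaneous ILCs, 9.41 and 5.93 in dermal Sca1+ ILCs, 3.21 and 2.84 in dermal CCR6+ ILCs, and 5.53, 2.44 and 3.47 in epidermal ILCs. The dermal Sca1+ libraries held the highest values in CPM, above all libraries of the other groups. In TPM the second dermal Sca1+ library (24.1) lay below the first epidermal library (25.9). Means were 3.25 ± 2.15 CPM (SD, n = 3), 7.67 ± 2.46 (n = 2), 3.02 ± 0.262 (n = 2) and 3.81 ± 1.57 (n = 3). None of the 6 comparisons called Il4 in edgeR, with adjusted p-values from 0.469 to 0.956, and the widest difference, 1.34 ± 0.876 on the log2 scale for Sca1+ over CCR6+ ILCs, was not called.

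Il9 encodes a growth factor of mast cells that also sustains ILC2s, and it is the only 1 of the 5 genes outside chromosome 11. It had no read in either dermal Sca1+ library, and counts elsewhere were uneven. Il9 had 12, 3 and 5 counts in subcutaneous, 0 and 0 in dermal Sca1+, 11 and 114 in dermal CCR6+, and 151, 15 and 126 in epidermal libraries. These are 0.803, 0.209 and 0.396 CPM in subcutaneous, 0.706 and 7.52 in dermal CCR6+, and 8.18, 1.04 and 6.24 in epidermal ILCs. The epidermal libraries lay above all subcutaneous ones, and libraries of the CCR6+ and epidermal groups overlapped, and the CCR6+ pair differed widely within itself. Il9 was called lower in dermal Sca1+ than in epidermal ILCs (adjusted p = 0.0251, edgeR), and against a floor of 3 counts over both Sca1+ libraries, worth 0.11 CPM, it was at least 47-fold higher in epidermal ILCs. On the same floor it was at least 37.5-fold higher in dermal CCR6+ and at least 4.28-fold higher in subcutaneous ILCs, where edgeR called neither (adjusted p = 0.155 and 0.216). The CCR6+ bound rests on the second CCR6+ library, being 6.44-fold without it and 68.6-fold without the first, and the subcutaneous bound is 2.76-fold without the first subcutaneous library. With only 1 Sca1+ library behind the floor, the bounds are 20-fold and 27-fold for epidermal, 16-fold and 21.6-fold for dermal CCR6+, and 1.82-fold and 2.46-fold for subcutaneous ILCs, without the first and the second Sca1+ library in each case. The call against epidermal ILCs was lost without either Sca1+ library or without the third epidermal library (adjusted p of 0.0556 to 0.115). Subcutaneous against epidermal ILCs gave a log2 fold change of -3.43 ± 1.25 (adjusted p = 0.0851, edgeR), and dermal CCR6+ against epidermal ILCs gave -0.33 ± 1.26 (adjusted p = 0.955), whose sign turned without the first CCR6+ library (0.54) or the first epidermal library (0.17).

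**Figure D2:**
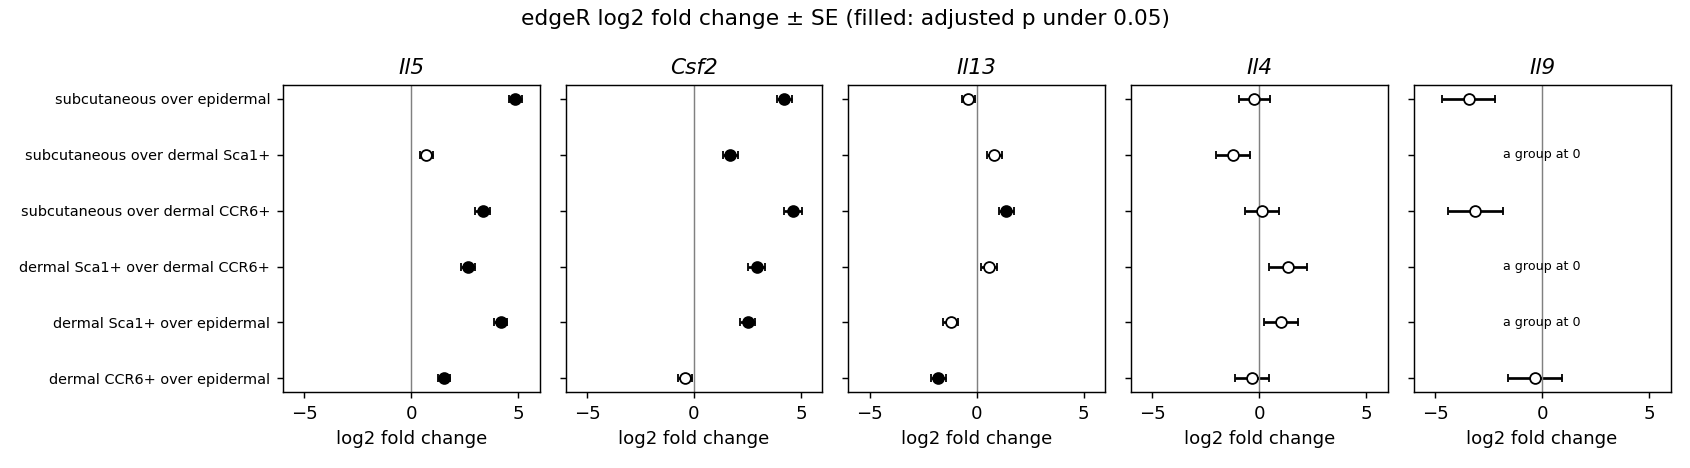
Log2 fold changes of the 5 genes in the 6 comparisons of 2 groups, the first-named group over the second, with bars of 1 SE. Filled points passed an adjusted p of 0.05 in edgeR, open points did not, and comparisons in which a group had 0 counts are left out. Il5 lies furthest right for subcutaneous over epidermal ILCs (4.86) and Csf2 for subcutaneous over dermal CCR6+ ILCs (4.64), while Il13 is to the left of 0 against epidermal ILCs.

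Of the 5 genes, 2 (Il5 and Csf2) were called higher and 0 lower in subcutaneous against epidermal ILCs, where edgeR called 20.2% of all genes, 13.3% higher and 6.87% lower. The libraries of these groups did not overlap for 3 of 5 genes (Il5, Csf2 and Il9), against 39.7% of all genes, so separation of the libraries alone was common. In subcutaneous against dermal Sca1+ ILCs, 1 of 5 (Csf2) was called, higher, beside 2.2% of all genes in either direction (0.993% higher and 1.21% lower), and none of the 5 overlapped, against 34% of all genes without overlap. Subcutaneous against dermal CCR6+ ILCs had 3 of 5 (Il5, Csf2 and Il13) called higher, beside 7.46% of all genes (3.71% higher and 3.75% lower), and the same 3 without overlap, against 43.3%. Dermal Sca1+ against dermal CCR6+ ILCs had 2 of 5 (Il5 and Csf2) called higher, beside 0.642% of all genes (0.346% higher and 0.296% lower), which is 104 genes in all. Il13 was the only member whose libraries overlapped there, leaving 4 of 5 without overlap against 39.4% of all genes. In dermal Sca1+ against epidermal ILCs, 2 of 5 (Il5 and Csf2) were higher and 1 (Il9) lower, beside 11.4% of all genes (8.66% higher and 2.75% lower). There 5 of 5 did not overlap in CPM, against 40.9%. In dermal CCR6+ against epidermal ILCs, 1 of 5 (Il5) was higher and 1 (Il13) lower, beside 6.18% of all genes (5.19% higher and 0.987% lower), and these 2 were also the ones without overlap, against 34.3%. The comparisons share libraries and are not independent of each other, and the 5 genes were chosen with earlier results of these data known.

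Because the levels of the 5 genes moved unequally, their proportions differed by layer. Il5 and Csf2 together made up most of the summed TPM in every library. Il5 alone took 57.2%, 56.5% and 45.6% of it in subcutaneous, 64.3% and 72.5% in dermal Sca1+, 59.8% and 71.2% in dermal CCR6+, and 36.1%, 24.8% and 25.5% in epidermal libraries. Every epidermal library was below every other library in this share. Il13 took 0.773%, 0.988% and 0.767% in subcutaneous, 1.27% and 0.726% in dermal Sca1+, 4.44% and 3.57% in dermal CCR6+, and 15.4%, 23.9% and 16.4% in epidermal libraries, where it was highest. Il4 took 5.66%, 3.61% and 4.38% of the epidermal total, and no more than 3.04% in any other library. Il9 took 10.5%, 1.95% and 9.96% in epidermal libraries and 0.812% and 9.31% in dermal CCR6+ ones, against at most 0.0833% in the subcutaneous layer and 0 in dermal Sca1+ ILCs.

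**Figure D3:**
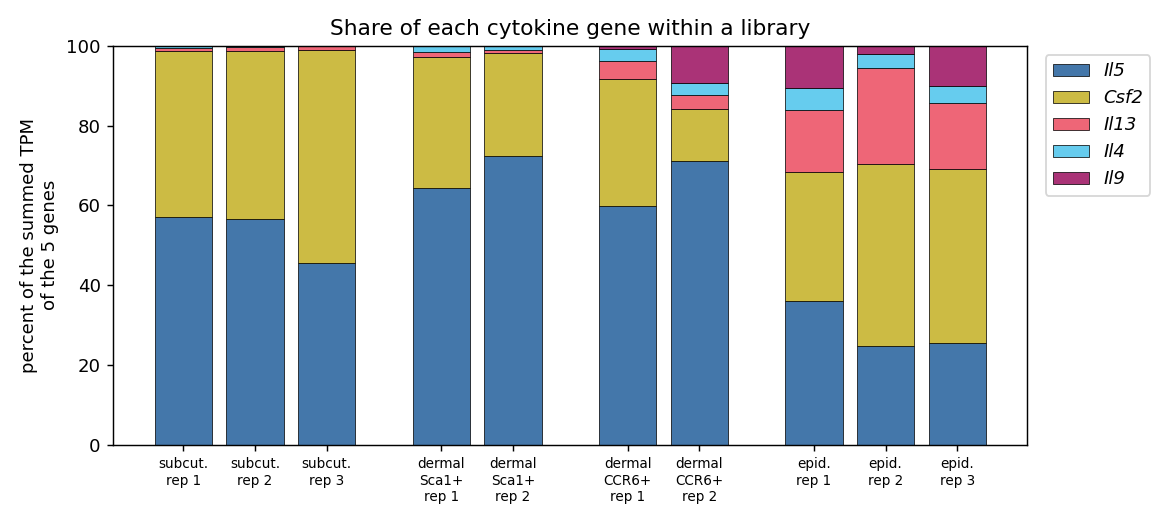
Share of each cytokine gene in the summed TPM of the 5 genes, in percent, for each library in the order subcutaneous, dermal Sca1+, dermal CCR6+ and epidermal. Each bar is 1 library, and the Il13 part is 0.726% to 1.27% in the first 2 groups and 15.4% to 23.9% in epidermal libraries.

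The unequal movement was tested as ratios of TPM within a library, which do not depend on the library size. The 6 pairs of Il5, Csf2, Il13 and Il4 were compared over the 4 groups by exact permutation tests of the F statistic on the log2 ratio (25200 arrangements, Benjamini-Hochberg adjusted over the 6 pairs), a test chosen after the levels were seen. Il13 over Il5 was 0.0135, 0.0175 and 0.0168 in subcutaneous, 0.0197 and 0.01 in dermal Sca1+, 0.0744 and 0.0501 in dermal CCR6+, and 0.425, 0.965 and 0.643 in epidermal libraries. The epidermal ratios stood far above all others and the CCR6+ ratios above the Sca1+ and subcutaneous ones. The permutation test over the 4 groups gave an exact adjusted p of 0.0025. This p and those below are for any difference among the groups, and no single ordering was tested. Subcutaneous minus epidermal log2 ratios were -5.34 for Il13 over Il5, -5.21 for Il4 over Il5, -4.62 for Il13 over Csf2 and -4.49 for Il4 over Csf2. The exact adjusted p-values of the last 3 over the 4 groups were 0.0014, 0.0014 and 0.0043. For the subcutaneous and epidermal libraries alone, 3 against 3 libraries cannot give an exact p below 0.1, the value reached by each of these 4 ratios. The ratio of the 2 abundant genes, Csf2 over Il5, was 0.725, 0.747 and 1.17 in subcutaneous, 0.512 and 0.356 in dermal Sca1+, 0.534 and 0.182 in dermal CCR6+, and 0.896, 1.85 and 1.71 in epidermal libraries. Its dermal values were below all others, and the permutation test over the 4 groups gave an exact adjusted p of 0.021. The adjusted p was above 0.05 without the second epidermal library (0.059) and without the third (0.061). The call also did not hold without the second dermal Sca1+ library. Il4 over Il13 was 1.2 and 1.4 in dermal Sca1+ libraries and at most 0.816 in every other library. The permutation test over the 4 groups called this ratio (exact adjusted p = 0.036). That call was lost in most fits that left out a library, up to 0.11, and the sign of its subcutaneous minus epidermal difference turned without the first subcutaneous or the second epidermal library.

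**Figure D4:**
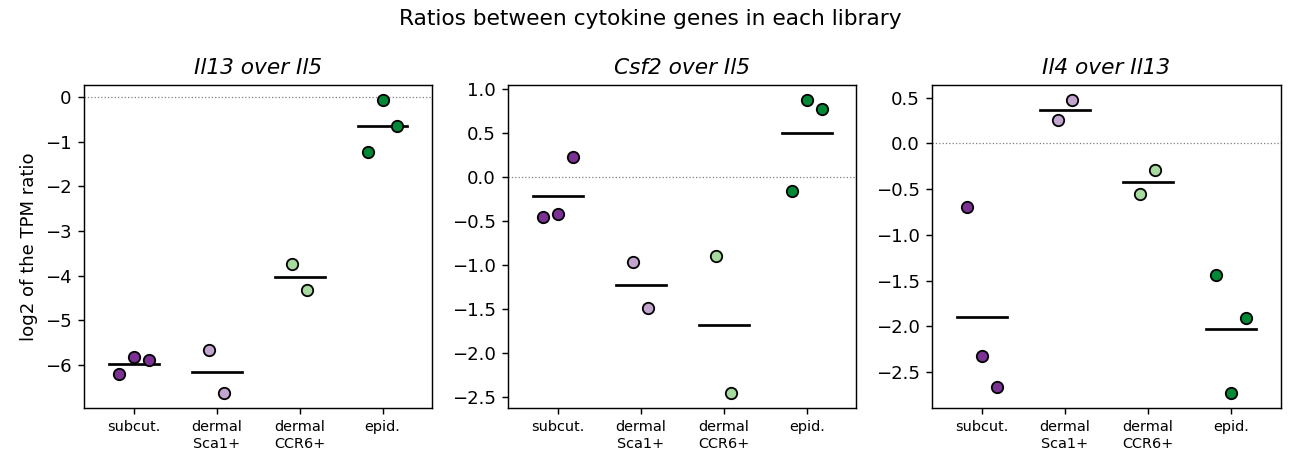
Log2 of the TPM ratio of Il13 over Il5, Csf2 over Il5 and Il4 over Il13 in each library, with subcutaneous, dermal Sca1+, dermal CCR6+ and epidermal libraries from left to right; points are libraries and lines group means. The Il13 over Il5 means are -5.98 in subcutaneous and -0.64 in epidermal libraries.

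Il4, Il13, Il5 and Csf2 share a stretch of chromosome 11, and Il9 lies on chromosome 13 (GENCODE M21 on GRCm38, 1-based). Il4 (ENSMUSG00000000869.12) occupies chr11:53602982-53618669, Il13 (ENSMUSG00000020383.1) chr11:53631324-53634702 and Csf2 (ENSMUSG00000018916.5) chr11:54247271-54249667, all on the minus strand, and Il5 (ENSMUSG00000036117.2) chr11:53720794-53725106 on the plus strand. Il9 (ENSMUSG00000021538.3) occupies chr13:56479277-56482246 on the minus strand. On a scale with the Il5 start at 0, the Il13 start lies at -86.1 kb and the Csf2 start at 528.9 kb. Between Il13 and Il5 lies Rad50, a DNA repair gene whose introns are known to hold a locus control region of the type 2 cytokines. Rad50 had 99.2, 49.2 and 45.6 CPM in subcutaneous, 44.2 and 45 in dermal Sca1+, 24.9 and 22.9 in dermal CCR6+, and 93.3, 80.3 and 44.9 in epidermal ILCs, so the CCR6+ libraries were lowest. It was lower in dermal CCR6+ than in epidermal ILCs, with a log2 fold change of -1.61 ± 0.412 (adjusted p = 0.0465, edgeR), and not called in subcutaneous against epidermal ILCs (-0.17). Irf1, a transcription factor gene on the far side of Il5, was higher in subcutaneous than in epidermal ILCs by 1.99 ± 0.301 (adjusted p = 0.00108, edgeR), at 419 against 105.3 CPM.

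Il3, a hematopoietic cytokine gene next to Csf2, had 38, 22 and 37 counts in subcutaneous, 18 and 10 in dermal Sca1+, 0 and 0 in dermal CCR6+, and 0, 0 and 0 in epidermal libraries. It was thus detected in the same 2 groups in which Csf2 was high, at least 41.3-fold higher in subcutaneous than in epidermal ILCs on a floor of 3 counts over the epidermal libraries (adjusted p = 0.0134, edgeR). With 1 epidermal library fewer behind that floor the bound is 26.9-fold without the first, 30.1-fold without the second and 25.5-fold without the third. Of 19 listed neighbours of the cytokine genes, 16 were tested. In subcutaneous against epidermal ILCs 4 were higher and 3 lower, beside 13.3% and 6.87% of all genes. Dermal Sca1+ against epidermal ILCs had 3 higher and 0 lower, beside 8.66% and 2.75%. Dermal CCR6+ against epidermal ILCs had 1 higher and 1 lower, beside 5.19% and 0.987%. In subcutaneous against dermal Sca1+, subcutaneous against dermal CCR6+ and between the dermal groups 0 were called. Of all genes, 2.2%, 7.46% and 0.642% were called there, so 0 of 16 is near these shares. The median log2 fold change of the 16 neighbours was 0.78 in subcutaneous against epidermal ILCs, beside 0.02 for all genes tested.

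**Figure D5:**
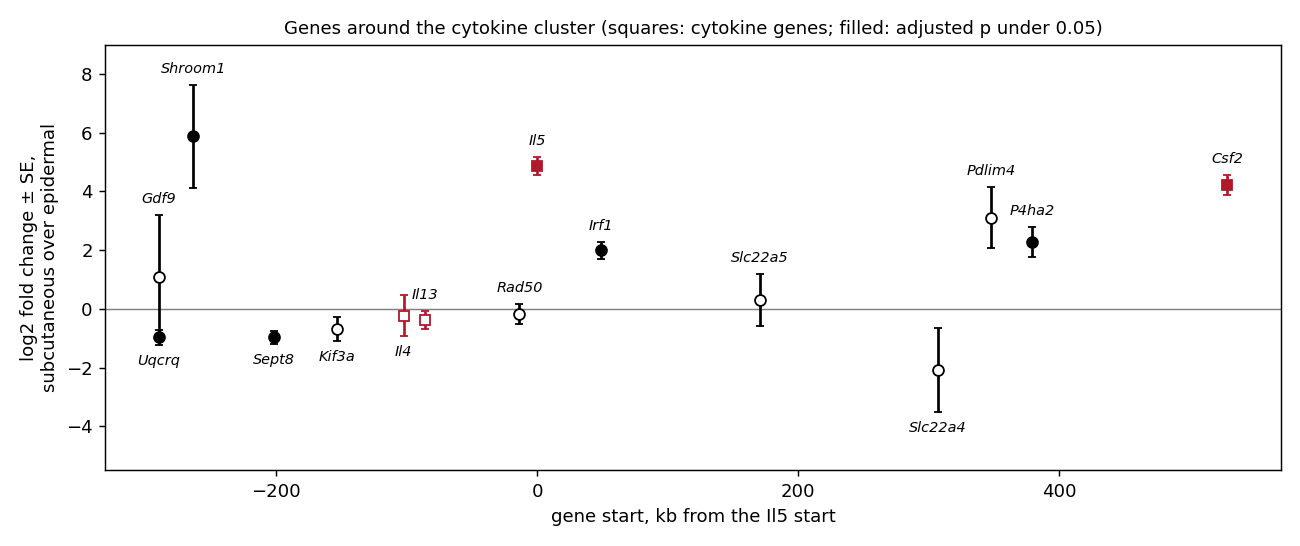
Subcutaneous over epidermal log2 fold change (SE bars) of cytokine genes and listed neighbours along the chromosome 11 stretch, against the distance of their start from the Il5 start in kb. Squares are cytokine genes and circles their neighbours, filled where the adjusted p was under 0.05. Il3 is left out because the epidermal group had 0 counts, and listed genes that were not tested are not drawn. Of the 14 protein-coding genes from Il4 to Il3, 11 are cytokine genes or listed neighbours. Il5 (4.86) and Csf2 (4.22) stand high, while Il13 (-0.39), Il4 (-0.23) and Rad50 (-0.17) are near 0.

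The receptors through which these cytokines act showed the layers in another way. Il4ra, the shared chain for IL-4 and IL-13, averaged 727.4 CPM in subcutaneous, 815.6 in dermal Sca1+, 532.8 in dermal CCR6+ and 67.7 in epidermal ILCs. It was higher in subcutaneous than in epidermal ILCs by 3.42 ± 0.356 on the log2 scale (adjusted p = 0.000102, edgeR), and also higher in both dermal groups. Il2rg, the common gamma chain used by the IL-4 and IL-9 receptors, was higher by 0.62 ± 0.173 (adjusted p = 0.0289), at 2878 against 1866 CPM. Csf2rb, the beta chain shared by the IL-5, IL-3 and GM-CSF receptors, averaged 41.1 CPM in subcutaneous and 0.941 CPM in epidermal ILCs (5.38 ± 1.22, adjusted p = 0.0108, edgeR). Csf2rb and its near copy Csf2rb2 share sequence, so reads may be split between them with error, and macrophages also express them. The macrophage genes given above were highest in the same subcutaneous libraries. Il9r averaged 100.9 CPM in subcutaneous, 136.1 in dermal Sca1+, 168.3 in dermal CCR6+ and 187.7 in epidermal ILCs and passed no test. Of the 9 receptor genes, 5 were higher and 0 lower in subcutaneous against epidermal ILCs, 5 and 0 in dermal Sca1+ against epidermal ILCs, and 2 and 0 in dermal CCR6+ against epidermal ILCs. Of all genes, 13.3%, 8.66% and 5.19% were higher there. The other comparisons called 0 of 9, beside 0.642% to 7.46% of all genes. The median log2 fold change of the receptor genes in subcutaneous against epidermal ILCs was 3.42, beside 0.02 for all genes. It was the same with genes at 0 in epidermal libraries set to their bound.

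Receptors that induce or restrain type 2 cytokines were split between the layers. Il1rl1, the IL-33 receptor ST2, had 900, 818.8 and 897 CPM in subcutaneous, 110.6 and 118.5 in dermal Sca1+, 0.77 and 0.132 in dermal CCR6+, and 3.47, 0 and 0 in epidermal ILCs. It was higher in subcutaneous than in epidermal ILCs with a log2 fold change of 9.51 ± 1.19 (adjusted p = 0.000315, edgeR). Il17rb, the IL-25 receptor, went the other way, averaging 18, 29.8, 96.3 and 105 CPM in subcutaneous, dermal Sca1+, dermal CCR6+ and epidermal ILCs (subcutaneous over epidermal -2.55 ± 0.377, adjusted p = 0.000952). Il18r1, the IL-18 receptor, was lower in subcutaneous ILCs too, at 13.6 against 188.6 CPM in epidermal ILCs (-3.79 ± 0.437, adjusted p = 0.000187, edgeR). Il2ra, the high-affinity IL-2 receptor chain, averaged 931.3, 454.5, 100.4 and 87.7 CPM in the same order of groups, and Icos, a costimulator of ILC2s, 722.6, 3180, 4460 and 1293 CPM. The neuropeptide receptors also differed, with Nmur1, for neuromedin U, at 33.8, 8.21, 0 and 1.7 CPM and Vipr2, for VIP, at 13.5, 0, 37.1 and 37.7 CPM. Of the 18 genes of this list, 5 were higher and 5 lower in subcutaneous against epidermal ILCs, 3 and 3 in subcutaneous against dermal Sca1+, 5 and 4 in subcutaneous against dermal CCR6+, and 4 and 1 in dermal Sca1+ against dermal CCR6+ ILCs. Of all genes, 20.2%, 2.2%, 7.46% and 0.642% were called in either direction, in the same order of comparisons.

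Transcription factor genes of the type 2 program moved in both directions. Gata3, the lineage factor of ILC2s that binds the Il5 and Il13 loci, had 2000, 1294 and 1513 CPM in subcutaneous, 2215 and 2006 in dermal Sca1+, 1084 and 1240 in dermal CCR6+, and 546.4, 491.2 and 514.7 in epidermal ILCs. Epidermal libraries were lowest, and Gata3 was higher in subcutaneous by 1.63 ± 0.187 (adjusted p = 0.000184, edgeR), in dermal Sca1+ by 2.03 ± 0.203 (adjusted p = 0.000147) and in dermal CCR6+ ILCs by 1.17 ± 0.201 (adjusted p = 0.00611), each against epidermal ILCs. It was not called in the other 3 comparisons. Rora, which ILC2s need for their development, was higher in subcutaneous than in epidermal ILCs by 1.32 ± 0.16 (adjusted p = 0.000254, edgeR), at 2121 against 847 CPM. Pparg, a nuclear receptor active in ILC2s, averaged 80.4, 18.2, 10.1 and 2.56 CPM in subcutaneous, dermal Sca1+, dermal CCR6+ and epidermal ILCs and was called in every comparison except dermal Sca1+ against dermal CCR6+. Maf, a factor known to drive Il4 in T cells, was lower in subcutaneous than in epidermal ILCs, with a log2 fold change of -1.69 ± 0.261 (adjusted p = 0.00125, edgeR), at 55.3 against 178.5 CPM. Of the 23 genes, 9 were higher and 6 lower in subcutaneous against epidermal ILCs, 1 and 0 in subcutaneous against dermal Sca1+, 1 and 5 in subcutaneous against dermal CCR6+, 7 and 3 in dermal Sca1+ against epidermal, and 3 and 0 in dermal CCR6+ against epidermal ILCs. Of all genes, 20.2%, 2.2%, 7.46%, 11.4% and 6.18% were called in either direction, in the same order of comparisons. Between the dermal groups 0 of 23 were called, beside 0.642% of all genes.

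RNA-binding proteins act on the stability of cytokine messages, many of which have AU-rich 3′ ends. The genes of 10 such proteins were counted. In subcutaneous against epidermal ILCs 4 were higher and 0 lower (Zfp36l1, Zc3h12a, Zc3h12c and Rc3h1), beside 13.3% and 6.87% of all genes. Zfp36l1, a tristetraprolin relative, was higher by 1.2 ± 0.185 (adjusted p = 0.00122, edgeR). Dermal Sca1+ against epidermal ILCs also had 4 of 10 higher and 0 lower, beside 8.66% and 2.75% of all genes. Dermal CCR6+ against epidermal ILCs had 1 higher and 1 lower, beside 5.19% and 0.987%. In subcutaneous against dermal Sca1+, subcutaneous against dermal CCR6+ and between the dermal groups, 0 of 10 were called. Of all genes, 2.2%, 7.46% and 0.642% were called there, so 0 of 10 is near these shares.

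Other products listed for ILC2s, most but not all of them secreted, were mostly higher in subcutaneous than in epidermal ILCs. Areg, an epithelial growth factor, averaged 677.6, 617.9, 238.7 and 56.1 CPM in subcutaneous, dermal Sca1+, dermal CCR6+ and epidermal ILCs, and Arg1, an enzyme expressed by ILC2s and macrophages, 757.2, 77.6, 9.7 and 21.1 CPM. Csf1, the macrophage growth factor, averaged 141.2, 53.1, 7.13 and 5.56 CPM, and Lif 131.8, 57.8, 13.3 and 4.99 CPM. Subcutaneous over epidermal log2 fold changes were 3.59 ± 0.361 for Areg (adjusted p = 8.48e-05), 5.17 ± 0.222 for Arg1 (adjusted p = 6.7e-07) and 4.66 ± 0.266 for Csf1 (adjusted p = 4.22e-06, edgeR). Il2 was lower in subcutaneous ILCs, by -1.62 ± 0.316 (adjusted p = 0.00476), at 10 against 31 CPM. Of 14 genes in this list 12 were tested, and 8 were higher and 1 lower in subcutaneous against epidermal ILCs, beside 13.3% and 6.87% of all genes. The macrophage and fibroblast markers given above were also higher in the subcutaneous libraries, and their part in these counts was not tested.

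Markers of cells that also make these cytokines were set beside Il13, Il4 and Il9. Of 9 mast cell genes, summed to 347.1 to 764.5 CPM in subcutaneous, 490.8 to 702.2 in dermal Sca1+, 190.2 to 291.3 in dermal CCR6+ and 177.6 to 349.9 in epidermal libraries, 6 or 7 were at 0 in each epidermal library. Cma1 and Mcpt4 were at 0 in every epidermal library and Cpa3 averaged 0.0181 CPM there, while Kit carried most of the epidermal sum. Cpa3 had 120.3, 85.7 and 109.7 CPM in subcutaneous, 99 and 189.1 in dermal Sca1+, and 13 and 6.01 in dermal CCR6+ libraries. Of 8 tested mast cell genes, 6 were higher in subcutaneous, 5 in dermal Sca1+ and 5 in dermal CCR6+ than in epidermal ILCs. Of all genes, 13.3%, 8.66% and 5.19% were higher. Subcutaneous against dermal Sca1+ called 0 mast cell genes. The part of mast cells in the Il5 and Csf2 levels was not tested. The 3 basophil genes summed to at most 1.11 CPM in any library, and the 4 eosinophil genes to 13.3 to 22.1 CPM in subcutaneous and at most 3.4 CPM in other libraries. T cell genes, 10 in all, summed to 406 to 729 CPM in subcutaneous, 556 to 661.2 in dermal Sca1+, 950.1 to 1049 in dermal CCR6+ and 680.6 to 852.3 in epidermal libraries. Cd3g, Trbc1 and Trbc2 made up most of this sum in every library. Cd3e reached at most 80.1 CPM, Cd4 at most 35.5, Cd3d at most 31, Cd5 at most 5.78 and Cd8a at most 4.89 in any library. Trac had 22.9, 35.9 and 33.4 CPM in epidermal and 55.4 and 42 in dermal CCR6+ libraries. It had 20.7 and 8.42 in dermal Sca1+ and 12.2, 25.7 and 2.54 in subcutaneous libraries. Trdc had 31.9, 18.8 and 34.2 CPM in epidermal and 23.7 and 20.5 in dermal CCR6+ libraries. It had 21.9 and 7.65 in dermal Sca1+ and 2.08, 38.6 and 1.51 in subcutaneous libraries. The part of T cells in the Il4 and Il9 levels was not tested.

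The genes most like each cytokine gene over the 10 libraries were found by Pearson correlation of log2 CPM among 6856 genes with a mean of at least 20 CPM, as a description of libraries that share 4 groups. Il5 was most like Nedd4 (r = 0.991), a ubiquitin ligase, Slc7a8 (r = 0.991), an amino acid transporter, and Irak3 (r = 0.99), an inhibitor of interleukin-1 receptor signalling. Slc7a8 averaged 519 ± 117.1 CPM in subcutaneous, 328.5 ± 40.9 in dermal Sca1+, 23 ± 9.85 in dermal CCR6+ and 5.39 ± 1.88 in epidermal ILCs (SD, n = 3, 2, 2 and 3). Csf2 was most like Cnot6l (r = 0.992), a deadenylase subunit, Gimap1 (r = 0.989), a lymphocyte GTPase, and Ahcyl2 (r = 0.979). Gimap1 averaged 101, 43.1, 4.73 and 6.14 CPM in the same order. Il13 was most like Irf2 (r = 0.936), Il4 most like Cep192 (r = 0.958) and Il9 most like Adgrg1 (r = 0.94), a G protein-coupled receptor with 61.4, 48.1, 200.6 and 208.8 CPM. Among the members themselves, Il5 and Csf2 were alike (r = 0.89), Il9 ran against Il5 (r = -0.71) and Csf2 (r = -0.69), and the other pairs lay between -0.24 and 0.21.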

How the data were processed

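RNA was measured in 10 libraries, made per the labels' protocols by SMART-Seq and Nextera XT, which keep no strand information. Trimmomatic, STAR, RSEM and the mm10 build are named per the submitters' processing notes; tool versions and annotation: not given in the sources used here. The deposited expected counts are RSEM's estimates per gene, per the file headers, and 7.2% to 8.39% of the values over all 47643 IDs were not whole (more than 1e-06 from a whole number). The deposited TPM values are, per the file headers, RSEM's abundances corrected for effective length and scaled to a common total. Without strand, overlapping and antisense genes cannot be separated.

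Groups followed the titles, since no sort marker stands in the cell type field of replicate 2 of the dermal groups. Of 47643 IDs, 47224 matched a GENCODE M21 symbol. Expected counts were rounded, filtered by filterByExpr (minimum 10) and fitted with TMM and edgeR 4.0.16's quasi-likelihood test, 2-sided, in 1 model of all 10 libraries and 4 groups, with Benjamini-Hochberg adjustment over 16208 genes and a threshold of 0.05. The SE is the log2 fold change over the square root of F. The biological coefficient of variation was 0.62. Replicates differed beyond sampling noise (chi-square over its degrees of freedom, minimum 42.8). The script was tested on simulated data. Named were the members, the 3 genes most like each, up to 4 highest called genes per list, and others after their values were seen. The members and lists were chosen with earlier results of these data known. Promoter windows are RefSeq's (GRCm38.p6). Alternatives were RLE, DESeq2 1.42.0, limma 3.58.1 on log2(TPM + 1) and log2(TPM + 0.1), other filters, only 2 groups, a replicate block and leaving out each library. The result of 1 listed gene is not reported here.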

Additional observations from a re-analysis of the deposited data

How the results depend on the processing

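Il5 and Csf2 kept their calls in subcutaneous against epidermal, subcutaneous against dermal CCR6+ and dermal Sca1+ against epidermal ILCs under every alternative run. Same-numbered libraries deviated from their group means with correlations of -0.038 to 0.114 over 13 pairs, and 3 of 10 libraries correlated best with their own number. No pairing by number was seen. Groups of 2 or 3 libraries cannot exclude a shared origin of same-numbered libraries, and the labels do not give it. With the number as a replicate block, the log2 fold change lost its call for Csf2 in subcutaneous against dermal Sca1+ (1.65), Il13 in subcutaneous against dermal CCR6+ (1.5) and Il9 in dermal Sca1+ against epidermal ILCs (-9.11), Il9 turned sign in dermal CCR6+ against epidermal ILCs (0.3), and the adjusted p of Il9 for any difference was 0.116. Under the block 88 genes were higher and 115 lower in subcutaneous against dermal Sca1+, 34 and 30 in dermal Sca1+ against CCR6+, 252 lower in dermal Sca1+ and 72 lower in dermal CCR6+ against epidermal ILCs. The cause of the changes below was not tested.

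In subcutaneous against epidermal ILCs, 1113 genes were lower in the reported fit, 2051 with limma on log2(TPM + 1) and 1969 with limma on log2(TPM + 0.1), where 52.1% and 53.3% of calls were higher against 65.9%. Il9 was called there by DESeq2 (-3.42), both limma settings (-2.78 and -3.27) and the fit of 2 groups (-3.42). In subcutaneous against dermal Sca1+ ILCs, 161 genes were higher and 196 lower; higher were 703 with DESeq2, 535 and 428 with limma, 805 without a filter and 360 in the fit of 2 groups, and lower were 484, 356, 315 and 523 in the first 4 of these, with 59.2%, 60%, 57.6%, 60.6% and 64.3% of calls higher against 45.1%. In subcutaneous against dermal CCR6+ ILCs, 601 were higher and 608 lower, against 1373 and 972 with DESeq2, 1357 and 935 without a filter, and 1079 and 1010 higher with limma; the fit of 2 groups had 61.3% of calls higher against 49.7%, and lost the call of Il13 (1.39). Il4 turned sign there with limma (-0.09 and -0.12). In dermal Sca1+ against dermal CCR6+ ILCs, 56 were higher and 48 lower, against 296 and 260 with DESeq2, 383 and 264 without a filter, 26 and 21 in the fit of 2 groups, and 90 and 89 higher with limma. Il9 was called there by DESeq2 (-8.22), limma on log2(TPM + 0.1) (-6.75) and without a filter (-8.99), and Csf2 lost its call in the fit of 2 groups (2.93). In dermal Sca1+ against epidermal ILCs, 445 were lower, against 1008 with DESeq2, 946 and 912 with limma and 846 without a filter, where limma had 60.9% and 61.6% of calls higher against 75.9%. Il13 was called there by DESeq2 (-1.2), limma (-1.33 and -1.36) and with the filter of 5 CPM (-1.2). In dermal CCR6+ against epidermal ILCs, 841 were higher and 160 lower, against 1416 and 585 with DESeq2, 1532 and 496 without a filter, 482 higher in the fit of 2 groups, where Il5 lost its call (1.51), and 390 and 370 lower with limma. DESeq2 and the limma settings had 70.8%, 64.4% and 68.3% of calls higher there, against 84%. Without a filter 4925 genes differed among the groups, against 2820.

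Leaving out 1 library at a time gave these ranges. In subcutaneous against epidermal ILCs, 698 to 1065 genes were lower and Il4 lay between -0.88 and 0.13. In subcutaneous against dermal Sca1+ ILCs, 59 to 208 were higher and 98 to 224 lower, and Csf2 lay between 1.54 and 1.92. In subcutaneous against dermal CCR6+ ILCs, 192 to 701 were higher and 243 to 671 lower, Il13 lay between 1.2 and 1.62 and Il4 between -0.54 and 0.46, and the median of all genes reached 0.27 against 0.08. In dermal Sca1+ against dermal CCR6+ ILCs, 18 to 117 were higher and 15 to 62 lower, with Il5 between 2.56 and 2.73 and Csf2 between 2.4 and 3.8. In dermal Sca1+ against epidermal ILCs, 931 to 1428 were higher and 243 to 459 lower, with Il9 between -9.8 and -8.79. In dermal CCR6+ against epidermal ILCs, 59 to 198 were lower, with Il5 between 1.32 and 1.92, Il13 between -2.01 and -1.59, Il4 between -0.56 and 0.03, Il9 between -2.86 and 0.54 and Csf2 between -1.29 and 0.11. The adjusted p for any difference lay between 0.0141 and 0.0747 for Il13 and between 0.0211 and 0.0901 for Il9. The subcutaneous minus epidermal log2 ratio lay between -1.05 and -0.52 for Csf2 over Il5 and between -0.47 and 0.51 for Il4 over Il13. Fitted fold changes of Il9 against dermal Sca1+ ILCs, where it had no read, depend on the prior count. For dermal Sca1+ against dermal CCR6+ ILCs that of Il9 lay between -9.85 and -6.45. Depth limits Il9 in particular, which had 0 to 15 counts in 7 of the 10 libraries.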
